A study of Arabidopsis thaliana with 3 samples.

Results

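The genes described here encode arabinogalactan proteins (AGPs) of Arabidopsis thaliana. They are the nuclear protein-coding genes with a symbol of AGP and a number in RefSeq's TAIR10.1 gene table, 30 of 27444 genes. Binding of DIG1 and DIG2, studied as transcription factors responsive to abscisic acid, a stress hormone, was mapped by ChIP-seq. The series held 3 samples of accession Col-0, 1 per group, which expressed GFP alone as a control, GFP fused to DIG1, or GFP fused to DIG2. All 3 groups were whole seedlings, 4 days old and kept in the dark, that received 10 uM dexamethasone for 6 h, and chromatin was precipitated with an antibody against GFP. The labels do not give the promoter of the fusion genes, and whole seedlings do not show which tissue a summit came from. The labels pair DIG1 with locus AT3G45810, which the gene table lists under the synonym RbohJ, and DIG2 with AT5G50360, and the loci were not checked further.

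AGPs are cell-surface proteoglycans whose hydroxyproline-rich backbone carries large branched chains of galactose and arabinose, and many are tethered to the plasma membrane by a lipid anchor. Classical AGPs have a backbone rich in Pro, Ala, Ser and Thr, lysine-rich AGPs carry a short basic stretch within such a backbone, arabinogalactan (AG) peptides have a backbone of very few residues after processing, and chimeric AGPs join it to another domain. Members act in root growth, in female and male reproductive tissue and in the expansion of cells. By number the 30 genes fall into 13 classical, 3 lysine-rich, 12 AG peptide and 2 chimeric or non-classical members.

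Each deposited list gave summits, the positions of highest signal within a peak interval. A gene was counted as bound when a summit lay inside it or within 1000 bp of either end. The DIG1 list held 13459 summits in 11343 intervals and the DIG2 list 16562 summits in 13440 intervals. Summits were ranked within their list by the authors' −log10 p, with rank 1 the strongest, and the fold of a summit is the authors' enrichment over their modelled background. There was 1 list per factor and read depth was unknown, so ranks and folds of both lists are set side by side and not tested against each other. The gene set was selected on its high share of genes with DIG1 or DIG2 summits in these same lists, so its counts of bound genes are a description and carry no test.

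Most AGP genes had summits of both factors. DIG1 summits were found at 22 of the 30 genes (73.3%), against 37.7% of all protein-coding genes. DIG2 summits were found at 24 (80.0%), against 42.3% of all genes. The 95% Wilson interval of that AGP share, 62.7 to 90.5%, covers counting error only. It leaves out the selection of the set on its share of bound genes, so it is no test against all genes. A summit of either factor was at 24 AGP genes (80.0% against 43.7% of all genes), and summits of both were at 22 (73.3% against 36.3%). No AGP gene had a DIG1 summit alone, as did 1.4% of all genes. AGP13 and AGP23, both genes of AG peptides, had a DIG2 summit alone (6.67% of the members against 6.03% of all genes). AGP3, AGP5, AGP19, AGP30, AGP31 and AGP40 had no summit of either factor.

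**Figure D1:**
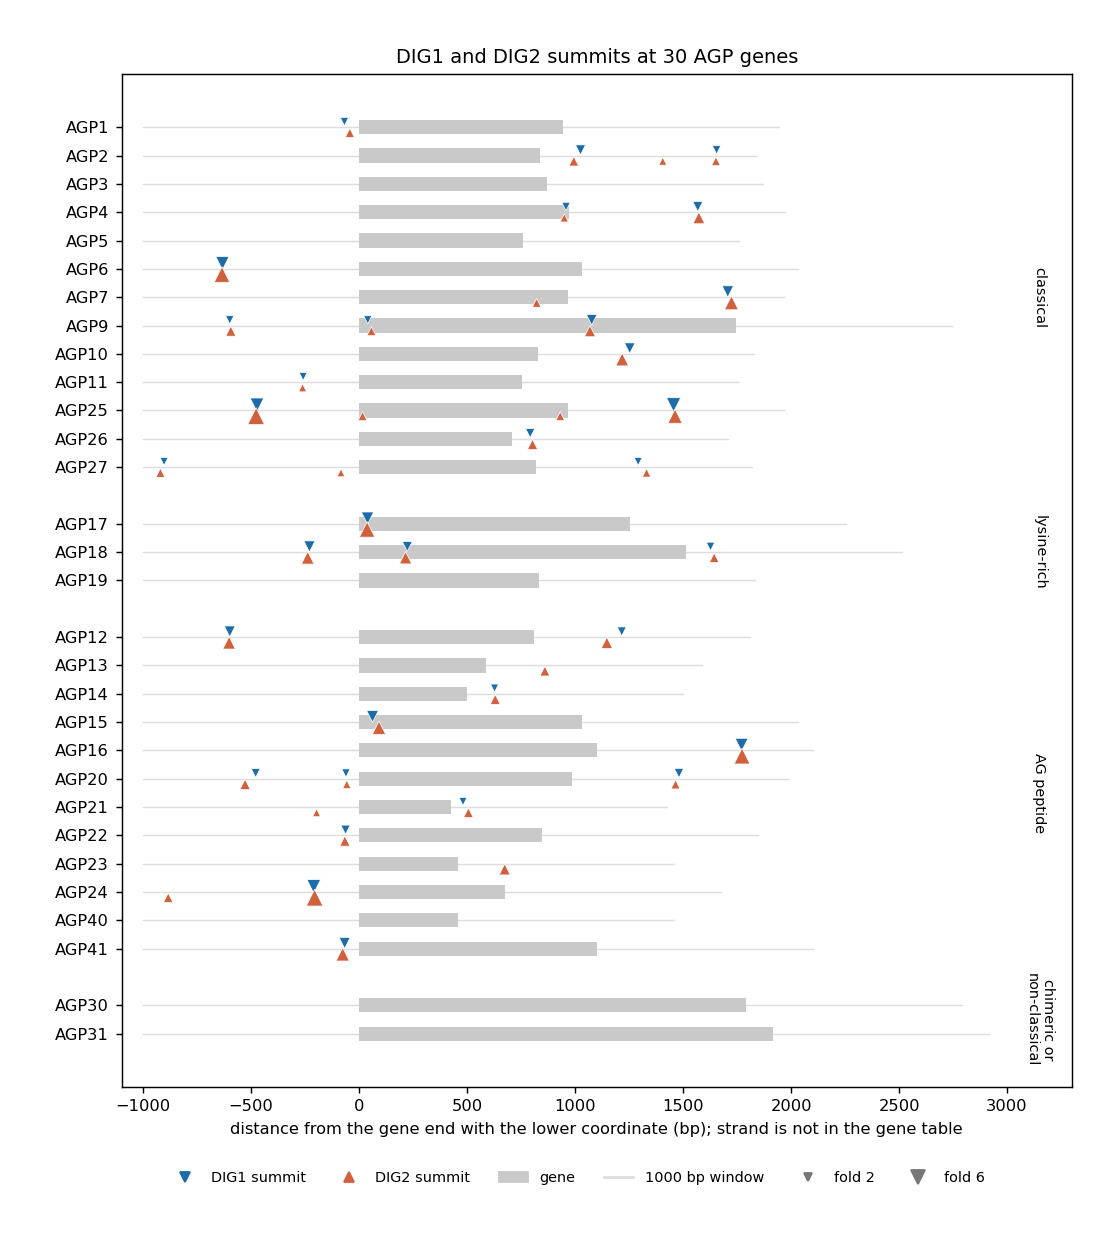
Position of every DIG1 summit (blue, pointing down) and DIG2 summit (orange, pointing up) at the 30 AGP genes, with the gene as a grey bar and the 1000 bp window as a thin line; the x axis is the distance in bp from the gene end with the lower coordinate, and symbol area grows with the authors' fold. DIG1 and DIG2 symbols stand above each other at 22 genes, AGP13 and AGP23 carry DIG2 symbols alone, and 6 genes carry none.

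The members were also counted by class, beside the 36.3% of all genes with summits of both factors and the 42.3% with a DIG2 summit. Of the 13 classical genes 11 had summits of both factors, of the 3 lysine-rich genes 2, and of the 12 AG peptide genes 9, with 11 for DIG2 alone or together with DIG1. The chimeric or non-classical genes AGP30 and AGP31 had none. The smaller classes hold 2 or 3 genes, and differences between classes were not tested.

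Among the classical genes the strongest summits lay at AGP25 (AT5G18690). Its DIG1 peak spanned chromosome 5, 6232594 to 6233511 (TAIR10, counted from 1), with a fold of 6.35 at a summit of rank 1537, 473 bp outside the gene. The DIG2 peak there spanned 6232480 to 6233536, with a fold of 9.56 at a summit of rank 1457, 477 bp outside. AGP25 was flanked on both sides, since a second DIG1 summit (rank 1567, fold 6.86) lay 492 bp and a second DIG2 summit (rank 3636, fold 6.92) 499 bp beyond its other end. Those second summits were nearer to AT5G18700, at 289 and 282 bp. DIG2 had 2 further weak summits inside AGP25, of ranks 11606 and 13903.

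AGP6 and AGP11 encode a related pair of pollen AGPs that act together in pollen development. AGP6 (AT5G14380) was among the strongest members, with a DIG1 summit of rank 1931 (fold 6.00, peak at chromosome 5, 4634724 to 4635207) 633 bp outside the gene. Its DIG2 summit had rank 2303 (fold 8.26, peak at 4634648 to 4635413), 635 bp outside the same end. AGP11 (AT3G01700) was among the weakest, with ranks of 11789 for DIG1 and 14472 for DIG2 and folds of 2.11 and 2.18. The AGP11 summits lay 259 and 262 bp outside it but inside the neighbouring gene AT3G01690.

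AGP7 (AT5G65390) had its strongest DIG1 summit at rank 2642 (fold 4.45, peak at chromosome 5, 26129305 to 26131114) and its strongest DIG2 summit at rank 2568 (fold 6.58, peak at 26129713 to 26130776), 741 and 758 bp outside the gene. AGP9 (AT2G14890), the longest classical member at 1745 bp, held 3 summits of each factor at matching places, and the strongest lay inside the gene (DIG1 rank 3813, fold 3.82, and DIG2 rank 5852, fold 4.22, in peaks at chromosome 2, 6400267 to 6400707 and 6400262 to 6400702). AGP10 (AT4G09030) had a single summit of each factor, at rank 4033 for DIG1 (fold 3.84, chromosome 4, 5792656 to 5793871) and rank 4272 for DIG2 (fold 5.58, 5792776 to 5793937), 424 and 389 bp outside the gene. All 3 of these genes were nearer to their strongest summits than any other protein-coding gene was.

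AGP4, also known as JAGGER, acts in the ovule to keep further pollen tubes away after fertilization. It had DIG1 summits of ranks 5252 and 10925 and DIG2 summits of ranks 5265 and 15306, the stronger one of each about 600 bp outside the gene (595 and 600 bp) and the weaker one just inside that same end. AGP2 had rank 5472 for DIG1 (fold 3.42) and 9918 for DIG2 (fold 3.16), which is 40.7% and 59.9% of the way down lists of unequal length. The rest of the classical genes with summits were weak in both lists. AGP26 had ranks of 8774 and 9393, AGP1 of 10892 and 12002, and AGP27 of 12762 and 12420 for DIG1 and DIG2. At AGP26 the summits lay inside the neighbour AT2G47935, and at AGP27 the strongest summit of each factor was nearer to MEE32, an enzyme gene of the shikimate pathway, at 115 and 98 bp, than to AGP27, at 903 and 920 bp. A second DIG1 summit at AGP27 lay 476 bp outside it and inside NHX4, which encodes a sodium/proton antiporter. DIG2 also had a summit inside NHX4 (rank 13747). A further weak DIG2 summit (rank 16314, fold 2.08) lay 84 bp outside AGP27, with AGP27 the nearest gene.

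Of the lysine-rich genes, AGP17 and AGP18 had summits and AGP19 did not. AGP17 (AT2G23130), which is needed for Agrobacterium to attach to roots, had 1 summit of each factor just inside one gene end, 39 bp for DIG1 (rank 2637, fold 5.14, chromosome 2, 9843845 to 9844407) and 37 bp for DIG2 (rank 2212, fold 8.11, 9843913 to 9844431). AGP18 (AT4G37450), which acts in the choice of the functional megaspore in the ovule, held 3 summits of each factor at matching places. The strongest DIG1 summit there had rank 3560 (fold 4.27) and lay 230 bp outside the gene, while the strongest DIG2 summit had rank 3931 (fold 5.13) and lay inside it. Both stood in one interval with 2 summits in each list, at chromosome 4, 17605099 to 17606022 for DIG1 and 17605006 to 17606044 for DIG2. The nearest summits to AGP19, a gene needed for normal plant growth, were 18819 bp away for DIG1 and 5691 bp for DIG2.

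Among the AG peptide genes AGP24 had the strongest summits, which by −log10 p were also the strongest of all members, while by fold AGP25 stood above it in both lists. AGP24 (AT5G40730) ranked 1399 in the DIG1 list (fold 6.31, peak at chromosome 5, 16299534 to 16301155) and 1175 in the DIG2 list (fold 9.46, 16299951 to 16301281). Both summits lay near one end of AGP24, 210 and 206 bp outside it, and 825 and 829 bp from AT5G40720. AGP16 (AT2G46330) followed with DIG1 rank 1742 (fold 5.70, chromosome 2, 19019751 to 19021267) and DIG2 rank 1667 (fold 8.52, 19018996 to 19021269), 671 and 673 bp outside the gene. AGP15 (AT5G11740) had DIG1 rank 1930 (fold 4.72, chromosome 5, 3783560 to 3785377) and DIG2 rank 2508 (fold 5.94, 3783579 to 3784490), both inside the gene, 62 and 92 bp from its end. By −log10 p these 3 genes had summits in the strongest 20% of both lists, as AGP6, AGP7, AGP17 and AGP25 did. With ranks by fold AGP15 fell out of that range in both lists, to rank 2968 for DIG1 and 3999 for DIG2, and AGP7 in the DIG1 list, to rank 3424.

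AGP12 (AT3G13520) had summits on both sides. The stronger ones had DIG1 rank 4460 (fold 4.08, chromosome 3, 4407844 to 4408622) and DIG2 rank 5222 (fold 5.38, 4407145 to 4408567), 599 and 602 bp outside one end. The weaker ones lay 407 and 338 bp beyond the other end, with ranks of 7351 and 5963. AGP41 (AT5G24105) had 1 summit of each factor close to one end, at 67 bp for DIG1 (rank 4755, fold 4.16) and 76 bp for DIG2 (rank 4783, fold 6.02). AGP20 had 3 summits of each factor, on both sides of the gene, with best ranks of 7740 for DIG1 and 8955 for DIG2. The best DIG1 summit at AGP20 lay on the side of TUBG1, a gamma-tubulin gene, and the best DIG2 summit on the other side, 2009 bp apart. A weaker summit of the other list stood beside each of them, so the lists differed there in the order of the summits and not in their places.

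Weak AG peptide members included those with a known part in root hairs. AGP14, whose loss gives longer root hairs, ranked 12136 for DIG1 (fold 2.21) and 9663 for DIG2 (fold 3.30), 127 and 130 bp outside the gene. AGP21, an AG peptide of root hair development, ranked 11778 for DIG1 (fold 2.20) and 9901 for DIG2 (fold 3.18), 55 and 80 bp outside. Both genes thus stood at 90.2% and 87.5% of the way down the DIG1 list and at 58.3% and 59.8% of the way down the DIG2 list. AGP22 ranked 8941 and 9862, 63 and 66 bp outside the gene. AGP13 had a DIG2 summit of rank 11118 (fold 3.27) 273 bp outside it, and the nearest DIG1 summit was 18748 bp away. AGP23, whose product is found in pollen, had a DIG2 summit of rank 8067 (fold 4.19) 215 bp outside it but inside AT3G57710, and the nearest DIG1 summit was 7233 bp away.

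The 6 genes without a summit in the window differed in how far the nearest one was. AGP31, a chimeric AGP of the vascular tissue, missed the window by the least, with DIG1 and DIG2 summits 1540 and 1534 bp from it. AGP3 and AGP5 followed, at 1672 and 1692 bp and at 1700 bp for both factors. AGP40, a pollen AG peptide gene, was 2840 and 2863 bp from the nearest summits. AGP30, a chimeric AGP of the root that acts in root regeneration and in the timing of germination, was 9081 and 7590 bp away. Just inside the window, by the distance of the nearest DIG1 summit, lay AGP7 at 741 bp, AGP16 at 671 bp and AGP6 at 633 bp. No AGP gene had its nearest summit between 750 and 1500 bp away, for either factor, so the member counts were the same at both distances.

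**Figure D2:**
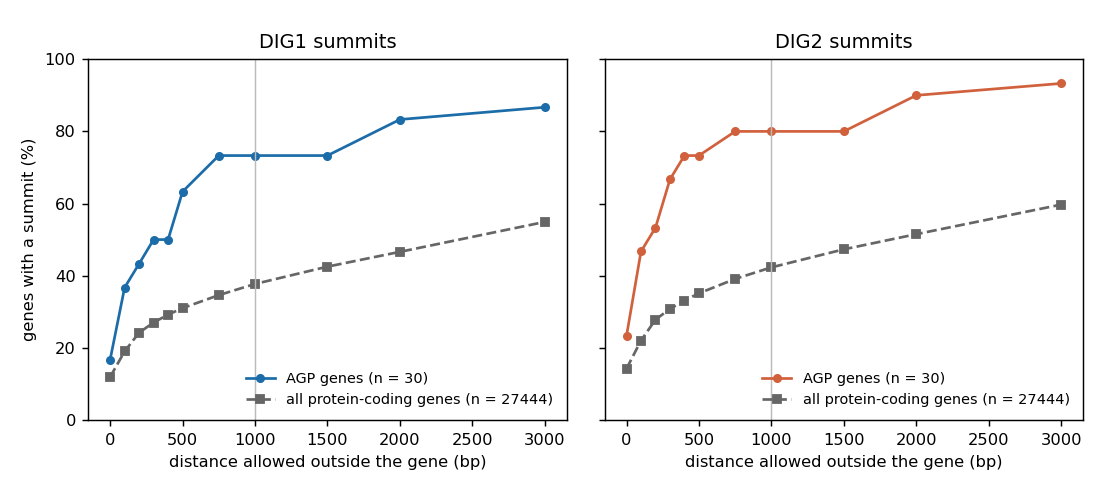
Share of genes (y axis, percent) with a DIG1 summit (left) or a DIG2 summit (right) inside the gene or within the distance given on the x axis (bp), for the 30 AGP genes (circles) and all 27444 protein-coding genes (squares); the grey line marks 1000 bp. The AGP share lies above that of all genes at every distance drawn and is level from 750 to 1500 bp at 73.3% for DIG1 and 80.0% for DIG2. The set was selected on its share at 1000 bp, so the other distances are no separate evidence.

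Summits close to the gene were counted as well. Within 100 bp, inside included, DIG1 summits were at 11 AGP genes (36.7%) and DIG2 summits at 14 (46.7%), against 19% and 22.0% of all genes. Inside the gene itself they were at 5 and 7 members (16.7% and 23.3%), against 11.9% and 14.2% of all genes. The set was selected on its share bound within 1000 bp, so these shares over all members partly restate that choice. Among genes bound by DIG1, 11 of 22 members and 5202 of 10342 of all genes had a summit within 100 bp. For DIG2 the counts were 14 of 24 and 6051 of 11613. Inside the gene they were 5 of 22 and 3274 of 10342 for DIG1, and 7 of 24 and 3905 of 11613 for DIG2. Bound members had the smaller share inside in both lists, but this comparison was not matched for gene length. AGP genes had a median length of 858 bp, against 2078 bp for all protein-coding genes. The strongest summit of a bound member lay outside the gene in most cases, and 3 of 22 members for DIG1 (13.6%) and 4 of 24 for DIG2 (16.7%) had it inside. Among all bound genes of the same length range as the AGP genes these shares were 16.9% and 16.6%. Members whose strongest summit lay outside had it at a median of 259 bp for DIG1 and 267.5 bp for DIG2, and all bound genes of that length range at 329 and 349 bp. The gene table gives no strand, so promoter and downstream sides could not be told apart.

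Several members were flanked on both sides. DIG1 summits lay beyond both ends of AGP12, AGP18, AGP20, AGP25 and AGP27 (5 of 22, 22.7%), and DIG2 summits beyond both ends of these and of AGP21 (6 of 24, 25%). At AGP21 the DIG2 summit on one side (rank 14015) lay inside the gene GCT. At AGP25 and AGP27 some of the flanking summits were nearer to another gene. The shares among all bound genes were 11% for DIG1 and 13.2% for DIG2, and among bound genes of the AGP length range 12.8% and 15.7%. At least 3 summits in the window were counted at 3 members for DIG1 (13.6%, against 8.16% of all bound genes) and at 6 for DIG2 (25%, against 11%). These counts rest on few genes and were not tested.

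Where both factors were present they were at the same places. At each of the 22 genes with both, a DIG2 summit lay within 35 bp of the strongest DIG1 summit, with a median of 8 bp, while for all genes with both the median was 10 bp and 95.3% were within 50 bp. All 33 DIG1 summits at AGP genes had a DIG2 summit within 100 bp, against 94.1% of the 10561 DIG1 summits at any protein-coding gene. Of the 42 DIG2 summits at AGP genes 33 had a DIG1 summit within 100 bp (78.6%, against 77.4% of the 12829 at any gene). The other 9 were the summits at AGP13 and AGP23 and extra ones at AGP2, AGP7, AGP21, AGP24, AGP25 and AGP27. Both precipitations used the same antibody, and the control behind each list's peak calls is not known here.

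AGP summits were of middling strength. The strongest summit of a bound member had a median rank of 4607.5 in the DIG1 list (34.2% of the way down) and 5558.5 in the DIG2 list (33.6%). For all bound genes the medians were 5860.5 (43.5%) and 7249 (43.8%). The strongest 20% of the list held the best summit of 7 of the 22 members for DIG1 (31.8%, against 25.3% of all bound genes) and of 7 of the 24 for DIG2 (29.2% against 24.5%). Median folds at bound members were 3.83 for DIG1 and 4.48 for DIG2, against 3.42 and 4.17 at all bound genes. None of the 30 AGP genes was reached by the 1000 strongest intervals of either list. Those intervals reached 4.2% of all protein-coding genes for DIG1 and 3.98% for DIG2. At shares this low few of 30 genes would be reached, so the absence does not set the members apart. It held for ranks by −log10 p, and with ranks by fold AGP25 stood at rank 971 in the DIG1 list. That rank came from its summit of fold 6.86, which lay nearer to AT5G18700 than to AGP25.

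**Figure D3:**
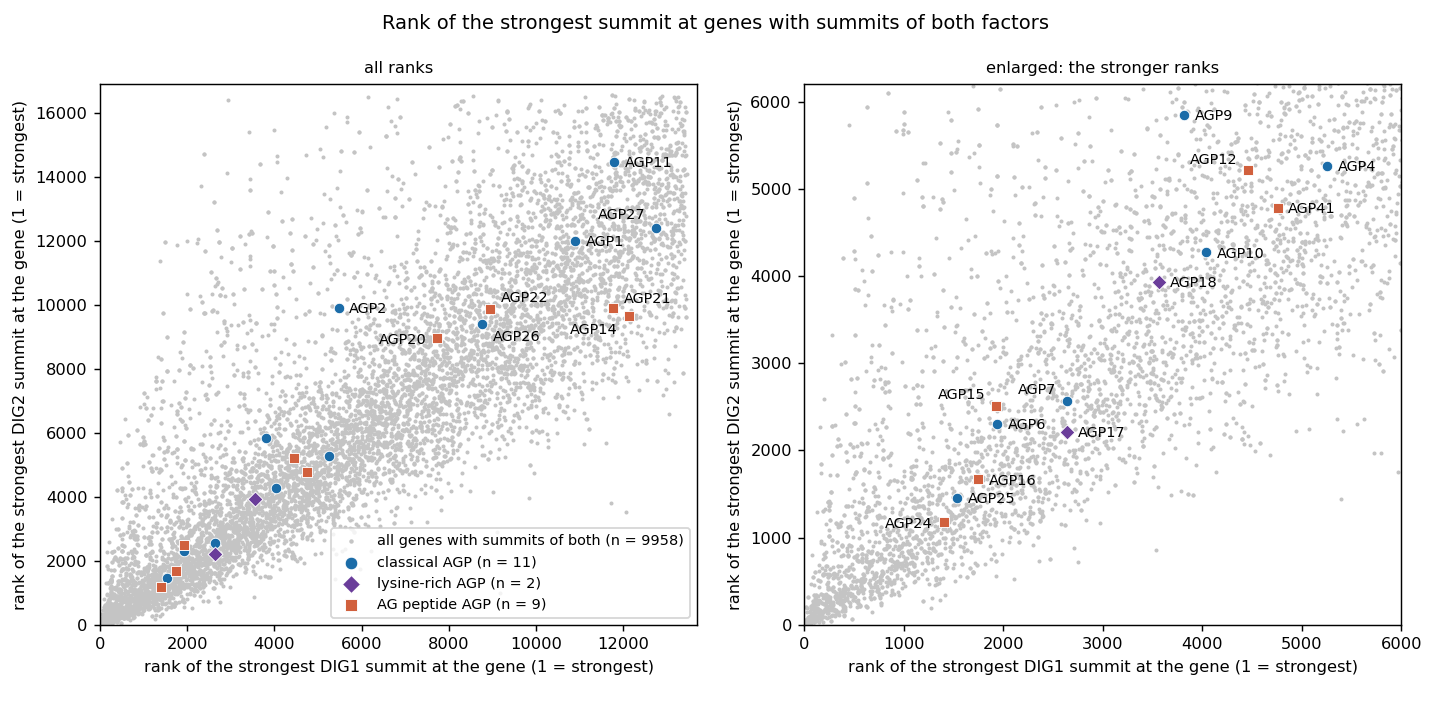
Rank of the strongest DIG1 summit (x axis) against the rank of the strongest DIG2 summit (y axis) at each gene with summits of both factors, 1 being the strongest, with all 9958 such genes in grey and the 22 AGP genes in colour by class; the right panel enlarges the stronger ranks. AGP24, AGP25 and AGP16 stand nearest the strong corner and AGP11, AGP27 and AGP1 far from it.

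AGP genes were shorter than most genes and had more free sequence around them. Their median length was 858 bp (427 to 1915 bp) against 2078 bp for all protein-coding genes. Over the whole genome a summit of either factor was at 29.9% of the 3139 genes of over 500 and up to 1000 bp and at 50% of the 7427 genes of over 2000 and up to 3000 bp. Of the 18 AGP genes of over 500 and up to 1000 bp, 15 had one (83.3%). Among all 11315 genes within the AGP length range the share was 36.5%, lower than the 43.7% of all genes. Within the 1000 bp flanks a median of 1601 bp around AGP genes was covered by no other protein-coding gene, against 1134 bp around all genes. Among genes with a free flank between the quartiles of the AGP genes (1006 to 2000 bp), 18 of 22 AGP genes (81.8%) and 46.4% of all 16432 such genes had a summit of either factor.

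**Figure D4:**
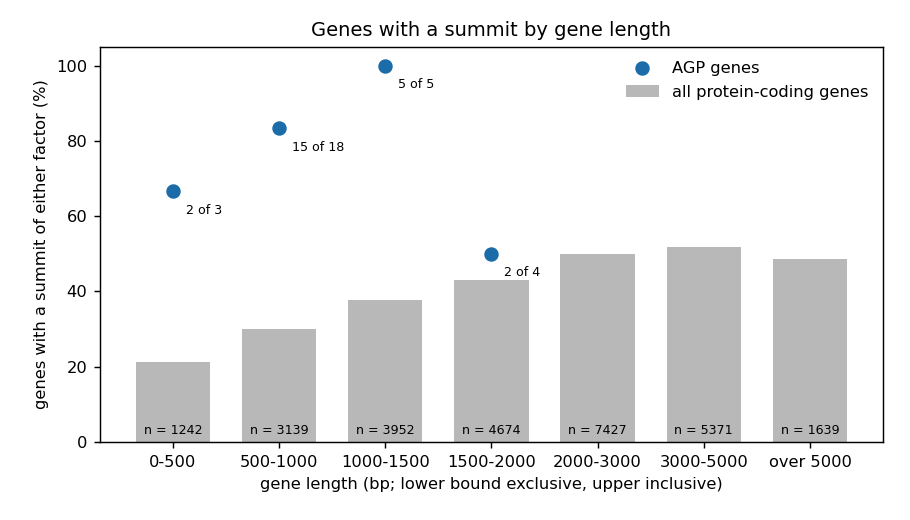
Share of genes with a summit of either factor inside or within 1000 bp (y axis, percent) by gene length (x axis, bp), for all protein-coding genes (grey bars, with the number of genes) and AGP genes (blue points, with bound of all members). AGP points stand at 66.7%, 83.3%, 100% and 50% in the 4 shortest length ranges, where the bars stand at 21.3%, 29.9%, 37.8% and 43.0%.

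Some summits counted for AGP genes lay nearer to a neighbour. The AGP gene was the protein-coding gene nearest to its strongest summit at 19 of 22 members for DIG1 and 20 of 24 for DIG2, the exceptions being AGP11, AGP26 and AGP27 for both and AGP23 for DIG2. At 9 members for DIG1 and 11 for DIG2 no other protein-coding gene lay within 1000 bp of the strongest summit. Neither count was made for all bound genes, so no share of those stands beside them. By chromosome, a summit of either factor was at 1 of 4 AGP genes on chromosome 1 (AGP21), 5 of 6 on chromosome 2, 5 of 6 on chromosome 3, 3 of 4 on chromosome 4 and 10 of 10 on chromosome 5. These counts are small and were not tested. The share of all genes with a summit of either factor ranged from 41.7% to 44.7% among the 5 chromosomes.

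Other genes of wall glycoproteins were counted in the same way, beside 37.7% of all protein-coding genes for DIG1 and 42.3% for DIG2. Each list holds only genes with a symbol or synonym of FLA, EXT or PRP and a number. It can therefore leave out members of its family. Fasciclin-like AGPs join AGP stretches to fasciclin domains of cell adhesion, and 10 of their 20 genes had DIG1 summits and 11 DIG2 summits (50% and 55.0%), both above the shares of all genes. The strongest were at FLA18 (DIG1 rank 1364, DIG2 rank 1625), FLA2 (2474 and 2725) and FLA9 (3922 and 3913), and FLA1 had a DIG2 summit alone (rank 15178). SOS5, also named FLA4, which acts in salt tolerance of the root, held summits of both inside the gene (ranks 5221 and 4718). FLA8, which carries the synonym AGP8, had summits of both factors (ranks 6058 and 6313). Extensins are hydroxyproline-rich proteins that form a network in the wall, and of the 6 extensin genes listed only EXT12 had summits (ranks 5234 and 4873). Of 5 proline-rich protein genes only PRP3 had them (ranks 12524 and 10916), so both of these small lists were at 20% or less for each factor, below the shares of all genes. None of the differences between lists was tested.

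Genes of the enzymes that build the sugar chains were counted beside the same 37.7% and 42.3% of all genes. Of 11 genes of prolyl hydroxylases, which make the hydroxyproline to which sugars attach, and of galactosyl-, glucuronosyl- and fucosyltransferases, 6 had DIG1 summits and 6 DIG2 summits (54.5% each). The 4 lists were searched by chosen names, not as whole enzyme families, and hold 2 or 3 genes each. A summit of either factor, found at 43.7% of all genes, was at 2 of 3 listed prolyl hydroxylase genes and 1 of 3 galactosyltransferase genes. It was at 2 of 3 listed glucuronosyltransferase genes and 2 of 2 fucosyltransferase genes. The strongest lay at GALT31A (AT1G32930), a galactosyltransferase of AGP side chains, with ranks of 3393 for DIG1 (fold 4.48) and 2219 for DIG2 (fold 8.05), 765 and 749 bp outside the gene. GLCAT14C (AT2G37585), a glucuronosyltransferase, followed with ranks of 5325 and 4173. Both listed fucosyltransferase genes, FUT4 and FUT6, had weak summits of both factors, with ranks from 10864 to 13102. P4H5 had ranks of 9194 and 7888, P4H2 a DIG2 summit alone (rank 14857) and GLCAT14B a DIG1 summit alone (rank 13281). GALT2, GALT29A, GLCAT14A and P4H13 had none.

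**Figure D5:**
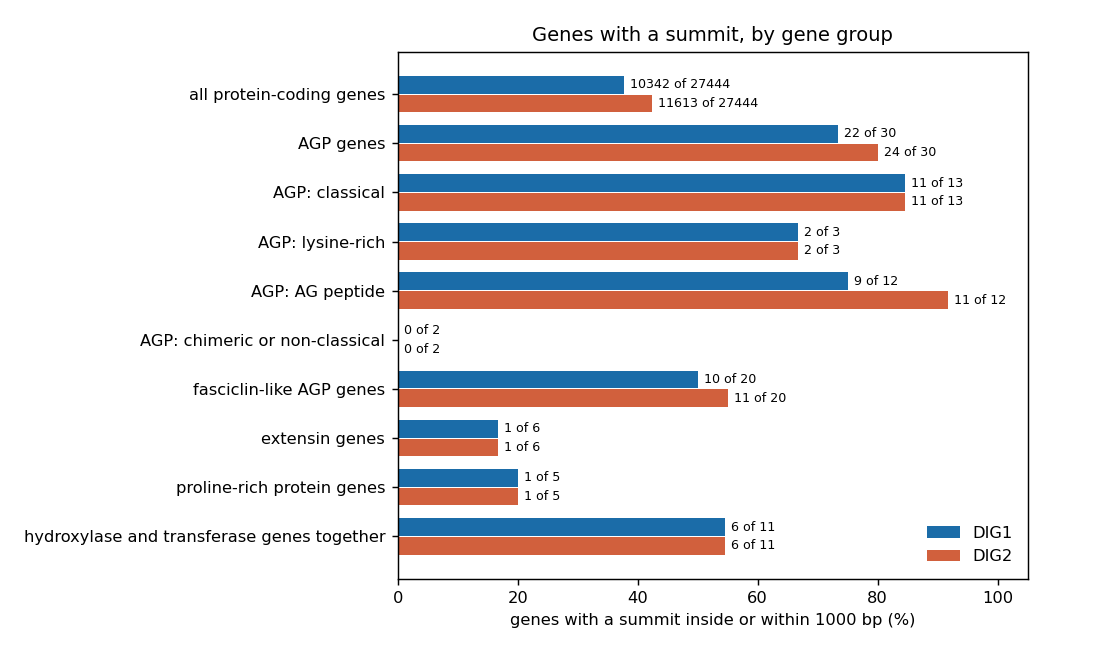
Share of genes with a DIG1 (blue) or DIG2 (orange) summit inside or within 1000 bp (x axis, percent from 0), with the number bound of all genes in the group beside each bar. AGP genes stand at 73.3% and 80.0%, all protein-coding genes at 37.7% and 42.3%, fasciclin-like AGP genes at 50% and 55.0%, and extensin and proline-rich protein genes at 20% or less. The groups other than all protein-coding genes were listed by symbol or synonym and need not be whole families.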

How the data were processed

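ChIP-seq peak lists of 1 DIG1 and 1 DIG2 sample were used, and the GFP sample was not analysed as a list here. Per the submitters' processing notes, Bowtie 0.12.7, the TAIR10 build and MACS2 were used. The sources used here do not give the MACS2 version, the control or any pooling of replicates. The deposited lists have the narrowPeak layout, with the authors' fold enrichment (a ratio), −log10 p, −log10 q and a score for each summit. The deposited −log10 p was at least 16.0 throughout, and the score was not used. Depth is unknown, so no depth-based interval is given.

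Summits were placed with Python 3.11.15 and pandas 2.3.3 at the interval start plus the summit offset, counted from 1. Genes came from a RefSeq table of TAIR10.1 with 38312 entries, without strand or exons, and none of its coordinates is printed. The binding rule was checked on simulated summits. Members and lists were chosen with earlier results of these data known, so no test was run. By rule, up to 12 bound members in order of best rank are given in full, all others by name, and up to 3 genes per pathway list. Further pathway genes, and the setting together of root hair and of pollen members, were chosen after their values were seen. Classes follow the known family by number. Of 8 galactosyltransferase names searched, 5 matched no entry, and splicing genes with PRP symbols were left out by name. Promoter motifs were not searched, since no sequence was used. Shares carry 95% Wilson intervals (scipy 1.17.1). Alternatives were other windows, summits, thresholds, list lengths, gene assignments and backgrounds.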

Additional observations from a re-analysis of the deposited data

How the results depend on the processing

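Of 53 alternative values of the member counts and shares, 38 stayed within 1.5 times the main count or within its Wilson interval. For main counts of 22 and 24, 1.5 times the count exceeds the 30 members, so no rise in a count could leave that range. The counts of one setting overlap, so the 53 values are not independent. Bound by either factor were 22 members with a 500 bp window (73.3%, against 36.5% of all genes), which drops AGP6 and AGP16. With 2000 bp there were 27 (90.0% against 52.9%), which adds AGP3, AGP5 and AGP31. When each summit was given to its nearest gene only there were 21 (70.0% against 34.2%), which drops AGP11, AGP23 and AGP26. With a −log10 p of at least 30 there were 23 (76.7% against 36.1%), which drops AGP11. With summits inside the gene only, the counts for DIG1, DIG2, either and both were 5, 7, 7 and 5, and the share bound by either 23.3% (15.3% of all genes). With the strongest 1000 intervals of each list all 4 counts were 0 and the share 0.0% (5.2% of all genes). With the strongest 50% of each list's summits, an alternative chosen after seeing the data, they were 14, 14, 15 and 13, and the share 50% (25.2% of all genes). These 3 settings use fewer summits by construction. The difference between AGP genes and their background in percent bound by either factor was 36.3 percentage points, 43.5 with genes of AGP length as background and 35.4 among genes with free flanks between the AGP quartiles, the last also chosen after seeing the data. With a 500 bp window the best ranks for DIG1 and DIG2 went to 10925 and 15306 at AGP4, for DIG1 to 7351 at AGP12, and for DIG2 to 13539 at AGP7, which then had no DIG1 summit. With 2000 bp they went to 389 and 406 at AGP17, 5547 and 5758 at AGP21, and for DIG1 to 3930 at AGP26. Ranks by fold were 971 for DIG1 at AGP25, from its summit nearer to AT5G18700, and 2968 and 3999 at AGP15. No paired analysis was possible because each factor had 1 list and no test was run.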
